A study of Homo sapiens with 9 samples.

Results

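The Sprouty, SPRED, DUSP and ETV feedback genes were examined as 10 genes: SPRY1, SPRY2, SPRY4, SPRED1, SPRED2, DUSP4, DUSP5, DUSP6, ETV4 and ETV5. They were selected by their GENCODE release 44 symbols as transcriptional feedback genes of ERK signaling, out of 62700 genes quantified, and transcript values were summed per gene. They were also chosen on a readout, because SPRY4 had already been seen to be lower in the libraries with an edited enhancer; the change of SPRY4 against the control is therefore given as a description, without a test, and the counts of changed genes cover the others. RNA was sequenced from HAL-01, a B-ALL (B cell acute lymphoblastic leukemia) line with the t(17;19) translocation, whose product is the fusion transcription factor TCF3::HLF. All cells, controls included, stably carried Cas9 and GFP, and all were collected on day 13. The labels class guides sgRNA_96 and sgRNA_97 as MEF2C enhancer KO, and SCR1, a scrambled guide, as the control, with 3 libraries each, numbered 1, 3 and 4. The guides were put into bulk cultures of 1 line. Neither the share of edited cells nor the removal of unedited cells is stated in the sources used here, so values may average over edited and unedited cells.

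ERK is the last kinase of the RAS, RAF and MEK cascade, which carries signals from growth factor and cytokine receptors to the nucleus. Active ERK induces genes whose products restrain the cascade. Sprouty and SPRED proteins act near the membrane on RAS and RAF, the DUSP phosphatases remove phosphates from ERK, and ETV4 and ETV5 are ETS transcription factors made when ERK relieves repression by CIC. The levels of these genes are widely used as a readout of ERK activity. In B cell precursors the cascade is fed by the pre-B cell receptor (pre-BCR) and by cytokine receptors, and leukemias with strong ERK or pre-BCR signaling are known to depend on such feedback.

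The supplement of the study lists a pair of guides against the HLF motif in the MEF2C enhancer. They are shown because they are the perturbation behind each comparison, with the HLF motif in capitals. Which of them is sgRNA_96 and which is sgRNA_97 is not stated in the sources used here.
E.1: tagcaTTACATAAtacatgt
E.2: ttagcaTTACATAAtacatg
Both match hg38 once on chromosome 5, on the minus strand, E.1 at chr5:88825103-88825122 with the PAM GGG and E.2 at chr5:88825104-88825123 with the PAM TGG. Other chromosomes were not searched for the guides. The site lies in an intron of MEF2C, with no annotated exon over it. SPRY4 (ENSG00000187678.10) lies on the same chromosome at chr5:142310427-142326455, 53.5 megabases away. The other feedback genes lie on other chromosomes.

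The libraries held 15212462 to 29777361 estimated counts, and mitochondrial genes took 5.97% to 7.01%. The deepest library was SCR1 replicate 1, with 29777361. Of 10 B lineage markers, all 10 were expressed, with a summed level of 3337.5 to 3444.3 CPM (counts per 1000000 counted, scaled by TMM) in SCR1 and 3176.1 to 3403.2 in the KO libraries. PAX5 ranged from 545 to 582 CPM over the 9 libraries. The T cell markers summed to at most 0.189 CPM and the erythroid markers to at most 0.456 CPM, and CD3D and HBB had no counts. The stromal markers summed to 17.4 to 24.1 CPM, nearly all of it PDGFRB, while COL1A2, COL3A1, DCN and LUM had no counts. The myeloid markers summed to 3.03 to 3.63 CPM in SCR1 and 5.26 to 7.90 CPM in the KO libraries. Most of it was MPO, with a mean of 2.75 CPM in SCR1 and 5.82 CPM in KO. LYZ averaged 0.251 and 0.323 CPM and CD14 0.209 and 0.292 CPM, and ELANE and FCGR3A were at 0 in all 9 libraries. MPO was higher in the KO libraries (log2 fold change 1.08, adjusted p = 0.000218, edgeR quasi-likelihood test with Benjamini-Hochberg adjustment). Its part in the results on the feedback genes was not tested. In a principal component analysis, sgRNA_96 replicate 1 (30.8) and sgRNA_97 replicate 1 (-34.0) stood at the ends of the second component, with the other libraries between -4.60 and 9.39.

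MEF2C, the gene after which the edited enhancer is named, was measured at 560, 559 and 536 CPM in the SCR1 libraries. It reached 495, 498 and 510 CPM with sgRNA_96 and 553, 505 and 495 CPM with sgRNA_97. Only sgRNA_97 replicate 1 lay within the SCR1 range. The log2 fold change of MEF2C between KO and SCR1 was -0.12 ± 0.04 (SE; 6 against 3 libraries), with an adjusted p of 0.0559 by edgeR and 0.0265 by DESeq2.

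Feedback genes were not all in use in these cells. Of the 10, 7 passed the filter on low counts and 3 did not. DUSP4 and DUSP5, which encode nuclear ERK phosphatases, had no counts in any of the 9 libraries, and a count of 0 allows up to 0.102 to 0.199 CPM per library (3 counts, counting error only). ETV4, an ETS factor closely related to ETV5, had 2 counts in sgRNA_96 replicate 3 and 2 counts in SCR1 replicate 3, and none elsewhere. For these 3 genes no difference was detectable at this depth.

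Per length, in TPM (transcripts per 1000000 transcripts), DUSP6 had the highest level of the 10 in SCR1, at 36.0 ± 4.68 TPM (SD, n = 3). DUSP6 is a cytoplasmic phosphatase of ERK. SPRY2 followed at 20.2 ± 0.84 TPM and SPRY1 at 10.1 ± 0.17 TPM, and both encode Sprouty inhibitors of receptor signaling. SPRED2 at 6.43 ± 0.86 TPM and SPRED1 at 6.005 ± 0.589 TPM overlapped each other, and both bind neurofibromin, the RAS GTPase activator. ETV5 stood at 3.83 ± 0.30 TPM and SPRY4 at 0.848 ± 0.252 TPM. The other neighbors among these 7 genes did not overlap in SCR1. In the KO libraries DUSP6, SPRY2, SPRY1, ETV5 and SPRY4 kept their places in the order, while SPRED1 (5.72 ± 1.09 TPM, n = 6), SPRED2 (5.07 ± 0.69 TPM) and ETV5 (3.66 ± 0.77 TPM) overlapped with their neighbors.

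**Figure D1:**
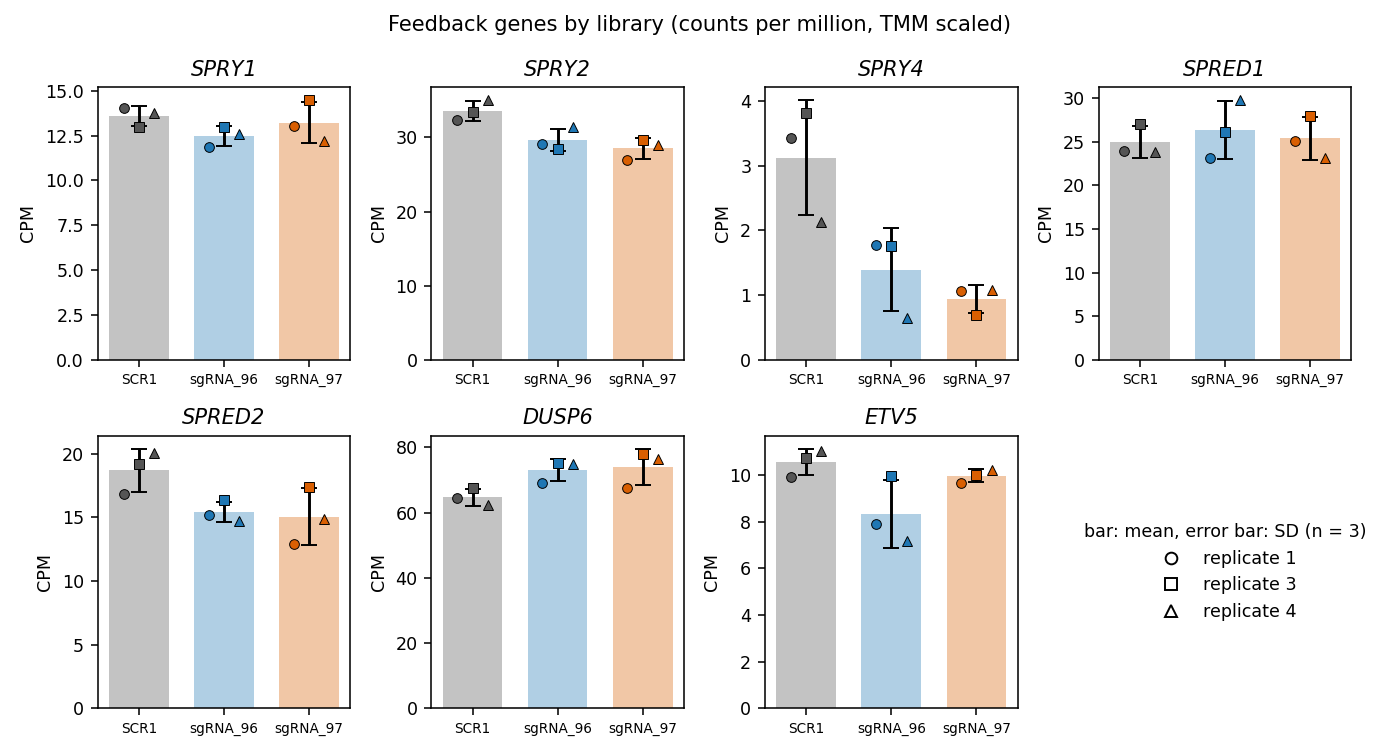
Level of the 7 expressed feedback genes in each library, in CPM after TMM scaling, with a separate vertical axis from 0 for each gene. Bars are group means, error bars are SD (n = 3) and symbols are libraries by replicate number; SPRY4 lies at 0.651 to 1.77 CPM in the KO libraries and at 2.13 to 3.82 CPM in SCR1, while the bars of the other genes differ little between groups.

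SPRY4, a Sprouty protein that restrains RAS activation, was the gene that drew attention to this set. It had 3.43, 3.82 and 2.13 CPM in SCR1, from 101, 67 and 45 counts. It had 1.77, 1.75 and 0.651 CPM with sgRNA_96, from 28, 36 and 12 counts, and 1.06, 0.684 and 1.07 CPM with sgRNA_97, from 16, 13 and 18 counts. Each of the 6 KO libraries lay below each SCR1 library. The log2 fold change was -1.42 ± 0.30 (SE) for both guides together, -1.17 ± 0.34 for sgRNA_96 and -1.74 ± 0.36 for sgRNA_97. For both guides together, the level in the KO libraries was 0.374 times the control level. The 2 guide comparisons share the SCR1 libraries. Between the guides themselves, a contrast that did not choose the gene, the log2 difference of sgRNA_97 from sgRNA_96 was -0.57 ± 0.38, with an adjusted p of 1.00 (edgeR), and the ranges of the guides overlapped. In bulk RNA, fewer cells that express SPRY4 and less SPRY4 RNA per cell cannot be told apart. On the log2(TPM + 1) scale, which understates changes of low genes, the difference was -0.49.

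Most of the SPRY4 signal came from 1 transcript. SPRY4-202, of 4904 nucleotides, took 71.7% to 100.0% of the gene's counts in the 9 libraries, with a mean of 98.8% in SCR1 and 95.3% in KO. Genes on the opposite strand, among them SPRY4-AS1, overlap SPRY4, and the counting is not stated to use strand in the sources used here; SPRY4-AS1 had no counts in any library.

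The starts of SPRY4, SPRY2 and DUSP6 are shown as those of the genes whose KO and SCR1 levels did not overlap. Each stretch is 250 bases on the minus strand, read toward the gene; for SPRY2 and DUSP6 it ends at the RefSeq start site (GRCh38.p14), and for SPRY4 it was read from hg38 and ends 9 bases before the start of SPRY4-202. Capitals mark the heptamers TGAATGA and TGAATGG on either strand, the first 7 letters of the octamers TGAATGAA and TGAATGGA that the CIC repressor recognizes. The heptamers were searched after the SPRY4 sequence had been read.
SPRY4: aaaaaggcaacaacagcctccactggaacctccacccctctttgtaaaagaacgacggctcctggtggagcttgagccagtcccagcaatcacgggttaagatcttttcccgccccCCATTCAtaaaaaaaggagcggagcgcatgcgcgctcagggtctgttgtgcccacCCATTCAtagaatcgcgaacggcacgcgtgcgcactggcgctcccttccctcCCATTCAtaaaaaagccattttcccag
SPRY2: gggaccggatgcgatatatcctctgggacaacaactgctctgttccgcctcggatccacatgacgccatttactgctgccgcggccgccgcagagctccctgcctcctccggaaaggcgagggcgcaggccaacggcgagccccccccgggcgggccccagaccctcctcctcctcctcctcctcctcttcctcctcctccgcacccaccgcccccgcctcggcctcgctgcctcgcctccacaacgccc
DUSP6: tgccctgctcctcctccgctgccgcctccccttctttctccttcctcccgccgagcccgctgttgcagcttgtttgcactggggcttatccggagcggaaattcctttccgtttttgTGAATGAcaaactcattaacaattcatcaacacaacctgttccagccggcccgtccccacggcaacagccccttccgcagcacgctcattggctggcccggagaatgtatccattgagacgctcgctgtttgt
The positions are chr5:142325031-142325280 for SPRY4, chr13:80341127-80341376 for SPRY2 and chr12:89352502-89352751 for DUSP6. The SPRY4 stretch holds 3 heptamers, all on the strand opposite to the one printed, the DUSP6 stretch holds 1 and the SPRY2 stretch holds none. None of the 3 stretches holds TGAATGAA or TGAATGGA in full. Of 35116 RefSeq promoters, 5.75% hold at least 1 heptamer in the same 250 bases and 0.108% hold 3 or more. The SPRY4 stretch is not one of these promoters. Because the heptamers were searched only after it had been read, these shares are no test of its matches. The RefSeq promoter of SPRY4 lies at another start site and holds none in its 250 bases, and of the 10 RefSeq promoters of the feedback genes only that of DUSP6 holds any. The stretches are 54.8%, 70.4% and 57.2% G and C for SPRY4, SPRY2 and DUSP6, against a median of 58.0% over all promoters.

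Full motifs were searched on both strands in the full RefSeq promoter windows, which were found for 6 of the 10 genes, in 10 promoters: SPRY1, SPRY2, SPRY4, SPRED1, SPRED2 and DUSP6. None of the 10 held TGAATGAA or TGAATGGA, which 1.65% and 1.03% of all promoters hold, or the ETS motif CCGGAAGT (4.14%). None held the HLF motif TTACATAA that the guides cover (0.886%) or its variant TTACGTAA (0.125%). The absence of a match says only that these letters are not in these windows.

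Of the 9 genes besides SPRY4, 6 could be tested against SCR1, and 3 of the 6 passed the test with both guides together: SPRY2 and SPRED2 were lower and DUSP6 was higher. Over all 14436 genes tested, 21.0% passed in this comparison, 10.7% lower and 10.3% higher. Levels of KO and SCR1 did not overlap for 2 of the 6, SPRY2 and DUSP6, against 20.3% of all genes. The 3 levels in KO were 0.867, 0.819 and 1.14 times those in SCR1, against 0.374 times for SPRY4.

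SPRY2 had 32.4, 33.5 and 35.0 CPM in SCR1, 29.1, 28.5 and 31.4 CPM with sgRNA_96 and 26.9, 29.6 and 29.0 CPM with sgRNA_97. All 6 KO libraries lay below all SCR1 libraries. The log2 fold change was -0.21 ± 0.07 (SE; adjusted p = 0.0311, edgeR).

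SPRED2 had 16.8, 19.2 and 20.1 CPM in SCR1, 15.2, 16.3 and 14.8 CPM with sgRNA_96 and 12.9, 17.4 and 14.9 CPM with sgRNA_97. The groups overlapped, because sgRNA_97 replicate 3 lay above SCR1 replicate 1. The log2 fold change was -0.29 ± 0.10 (SE; adjusted p = 0.0332, edgeR).

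DUSP6 went the other way. It had 64.3, 67.5 and 62.3 CPM in SCR1, 69.2, 75.2 and 74.9 CPM with sgRNA_96 and 67.6, 77.9 and 76.5 CPM with sgRNA_97. The lowest KO library, sgRNA_97 replicate 1, lay just above the highest control, SCR1 replicate 3. The log2 fold change was 0.19 ± 0.06 (SE; adjusted p = 0.0195, edgeR).

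These 3 calls were sensitive to the processing. All 3 were lost when edgeR was given gene lengths as an offset (adjusted p = 0.109 for SPRY2, 0.0945 for SPRED2 and 0.234 for DUSP6), when TPM was tested with limma, and when SCR1 replicate 4 was left out (0.154, 0.179 and 0.114), while each kept its direction. Without SCR1 replicate 1, only SPRED2 passed, and without SCR1 replicate 3 or sgRNA_97 replicate 1, only DUSP6 did. Calls over all genes fell too. They were 3037 in the fit reported, 1550 with gene length offsets, 1253 with limma on log2(TPM + 1) and 1986 without SCR1 replicate 4.

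SPRY1, SPRED1 and ETV5 did not pass the test with both guides together. SPRY1 averaged 13.6 ± 0.54 CPM (SD, n = 3) in SCR1 and 12.9 ± 0.92 CPM (n = 6) in KO, and its log2 fold change was -0.08 ± 0.09 (SE; adjusted p = 0.581, edgeR). SPRED1 had 23.9 to 27.1 CPM in SCR1 and 23.1 to 29.8 CPM in KO, a log2 fold change of 0.06 ± 0.09 (adjusted p = 0.678, edgeR), with the opposite sign, -0.08, when gene lengths were an offset. ETV5 had 9.91, 10.7 and 11.0 CPM in SCR1, 7.88, 9.97 and 7.16 CPM with sgRNA_96 and 9.66, 10.0 and 10.2 CPM with sgRNA_97. Its log2 fold change was -0.20 ± 0.12 (adjusted p = 0.258, edgeR). ETV5 shares its locus with DGKG on the same strand and ETV5-AS1 on the other, and these had at most 1 and 0 counts in any library.

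**Figure D2:**
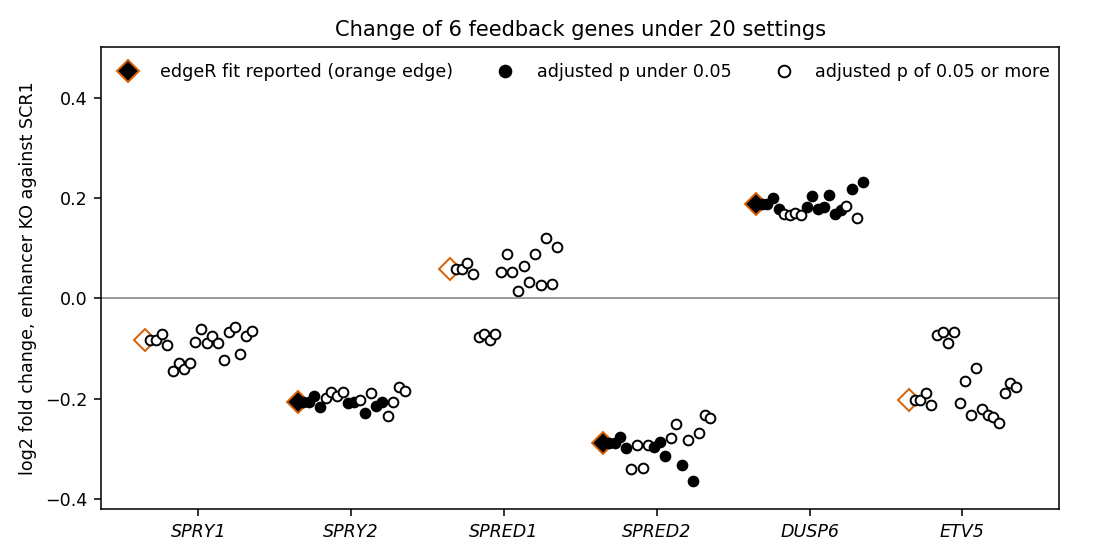
Log2 fold change between KO and SCR1 of the 6 tested feedback genes besides SPRY4 in the edgeR fit reported (diamond with orange edge) and 19 other settings (circles), in the same order for each gene. Filled symbols have an adjusted p under 0.05; SPRY2 and SPRED2 stay below 0 and DUSP6 above 0 under every setting shown, with filled and open symbols for each, and SPRED1 lies on both sides of 0.

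By guide, 0 of the 6 genes passed with sgRNA_96, where 12.4% of all genes did, and 1 of the 6, DUSP6, passed with sgRNA_97, where 15.9% did. At an unadjusted p under 0.05 in edgeR, 4 of the 6 passed with sgRNA_96 (26.8% of all genes), 3 with sgRNA_97 (29.6%) and 3 with both guides together (33.5%). DESeq2 called 0 with sgRNA_96 and 1, DUSP6, with sgRNA_97. The log2 fold changes of sgRNA_96 and sgRNA_97 against SCR1 were -0.18 and -0.23 for SPRY2, -0.27 and -0.30 for SPRED2 and 0.18 and 0.20 for DUSP6. For DUSP6 the adjusted p with sgRNA_97 was 0.0497 by edgeR with TMM scaling and 0.0503 by edgeR with DESeq2 size factors. The same log2 fold changes were -0.33 and -0.08 for ETV5. Both comparisons rest on the same SCR1 libraries.

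The direct comparison of the guides did not use the contrast that chose the genes, so all 7 expressed genes could be tested in it. None of the 7 passed (edgeR), where 0.0208% of all genes did, and DESeq2 called 0. At an unadjusted p under 0.05, 0 of the 7 passed, where 3.18% of all genes did, so this count is close to the background. The log2 difference of sgRNA_97 from sgRNA_96 ranged over the 7 genes from -0.57 ± 0.38 (SE) for SPRY4 to 0.25 ± 0.14 for ETV5.

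**Figure D3:**
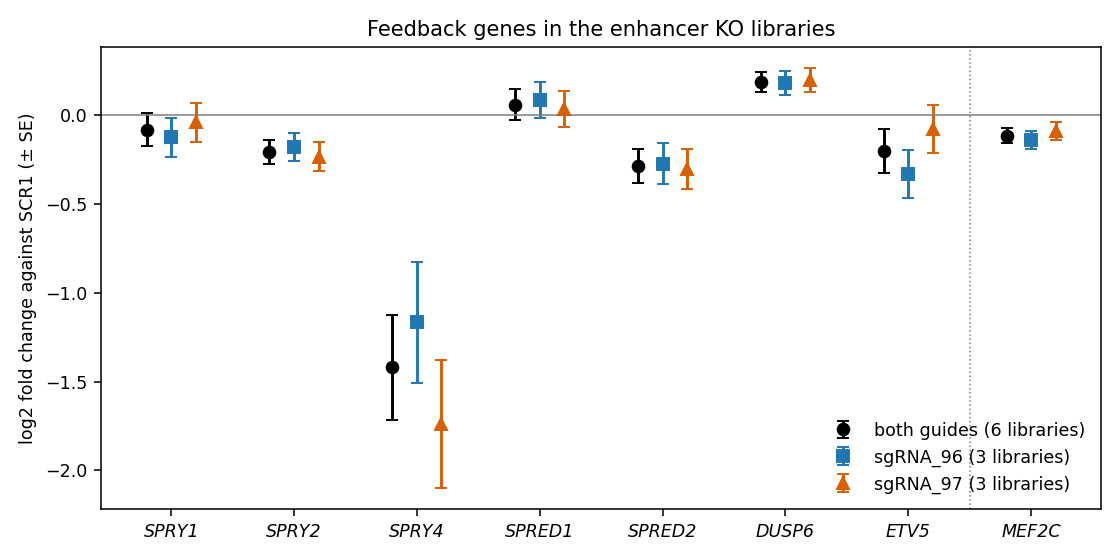
Log2 fold change against SCR1 of the 7 expressed feedback genes and MEF2C for both guides together (black circles), sgRNA_96 (blue squares) and sgRNA_97 (orange triangles), with SE as error bars. SPRY4 lies between -1.74 and -1.17, while the other genes lie between -0.33 and 0.20.

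Transcript use could be tested for 1 gene, DUSP6, the only one with 2 or more transcripts at a mean share of at least 10%. Its main transcript DUSP6-201, of 3627 nucleotides, took 70.1% ± 5.9 (SD, n = 3) of the counts in SCR1 and 70.2% ± 3.7 (n = 6) in KO. DUSP6-202 took 18.7% ± 3.1 in SCR1 and 20.2% ± 3.2 in KO, and DUSP6-204 took 11.1% ± 2.8 and 9.47% ± 1.24. None of the 3 shares differed beyond the spread between libraries (lowest unadjusted p = 0.262 and adjusted p = 0.786, exact two-sided permutation test over 84 arrangements). For SPRY1 the leading transcript was SPRY1-208, of 2352 nucleotides, rather than the reference transcript, and its share ran from 50.3% to 93.7% over the libraries. Its mean share was 65.9% in SCR1 and 82.1% in KO. This difference was not tested, because no other SPRY1 transcript reached a mean share of 10%.

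The 5 genes whose pattern over the 9 libraries was most like that of SPRY4, out of 12960 genes of at least 1 CPM, were SLC16A3, TUBB2A, TCF7, HES6 and SHROOM1, by the root mean square distance of log2 CPM centered per gene. The distance was 0.32 for SLC16A3, a lactate transporter, which had 2.14, 1.77 and 2.32 CPM in SCR1 and 0.526 to 1.51 CPM in KO. TUBB2A, a tubulin (distance 0.38), had 7.43, 9.24 and 6.43 CPM in SCR1 and 2.42 to 4.17 CPM in KO. TCF7, a transcription factor of lymphoid cells (0.40), had 2.92, 5.25 and 2.27 CPM in SCR1 and 0.814 to 2.32 CPM in KO. HES6, a transcription factor of the HES family (0.42), had 5.62 to 7.57 CPM in SCR1 and 1.90 to 3.27 CPM in KO, and SHROOM1 (0.44) had 1.61 to 2.17 CPM and 0.790 to 1.26 CPM. KO and SCR1 did not overlap for 4 of the 5, TCF7 being the exception, against 20.3% of all genes tested. The likeness comes largely from the KO difference itself, which chose SPRY4. The 5 genes were picked for this likeness, so the count of 4 is no test. No other feedback gene was among the 5.

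Genes around the feedback loop were read from 6 lists, which held 24 called genes. Each list count stands beside the shares over all 14436 genes tested: 21.0% called, 10.3% higher and 10.7% lower. Of the 24, 16 were still called with gene length offsets and 10 with limma on log2(TPM + 1). Calls over all genes tested went from 3037 to 1550 and to 1253 in these settings. Among the genes named below, GAB1, RPS6KA3, RASA2, CBLB, HDAC1, FOS and PHLDA1 were lost with limma, and CBLB, HDAC1 and PHLDA1 also with gene length offsets. Of 10 paralogues outside the set, 7 were tested, 2 of which were lower and 5 did not pass. The 2 were DUSP1, an ERK, p38 and JNK phosphatase of the nucleus, and DUSP2, a nuclear phosphatase of lymphoid cells. DUSP1 had 84.2 ± 5.18 CPM (SD, n = 3) in SCR1 and 57.0 ± 3.74 CPM (n = 6) in KO, a log2 fold change of -0.56 ± 0.06 (SE; adjusted p = 3.91e-07, edgeR). DUSP2 had 13.7 ± 1.65 and 9.93 ± 1.11 CPM, a log2 fold change of -0.47 (adjusted p = 0.00387; 0.0503 without SCR1 replicate 1). SPRY3, the remaining Sprouty gene, had 0.908 ± 0.201 CPM in SCR1 and 1.32 ± 0.18 CPM in KO (log2 fold change 0.55, adjusted p = 0.221). The median log2 fold change of this list was -0.14, against 0.00 over all genes tested.

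Among other ERK-responsive genes, 10 of 14 were tested, 2 were lower (10.7% over all genes), 1 was higher (10.3%) and 7 did not pass. The immediate early transcription factor EGR1 had 7.69 ± 0.27 CPM in SCR1 and 2.92 ± 0.47 CPM in KO, and its log2 fold change of -1.40 ± 0.15 (SE; adjusted p = 9.29e-07, edgeR) was close to that of SPRY4 in size. FOS, a subunit of AP-1, had 3.43 to 5.02 CPM in SCR1 and 1.48 to 3.63 CPM in KO (log2 fold change -0.75, adjusted p = 0.0241; 0.146 without SCR1 replicate 3). PHLDA1 was higher, at 2.46 ± 0.46 CPM in SCR1 and 3.96 ± 0.68 CPM in KO (log2 fold change 0.68, adjusted p = 0.0180; 0.119 without SCR1 replicate 4). The list's median log2 fold change was -0.49. It lies between FOSB (-0.55, 1.23 CPM in SCR1) and FOSL1 (-0.42, 1.58 CPM), both of low level. Neither passed (adjusted p = 0.241 and 0.463, edgeR). IER2, the most abundant gene of the list, had 58.8 ± 1.69 CPM in SCR1 and 60.3 ± 5.00 CPM in KO (log2 fold change 0.04, adjusted p = 0.745, edgeR).

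**Figure D4:**
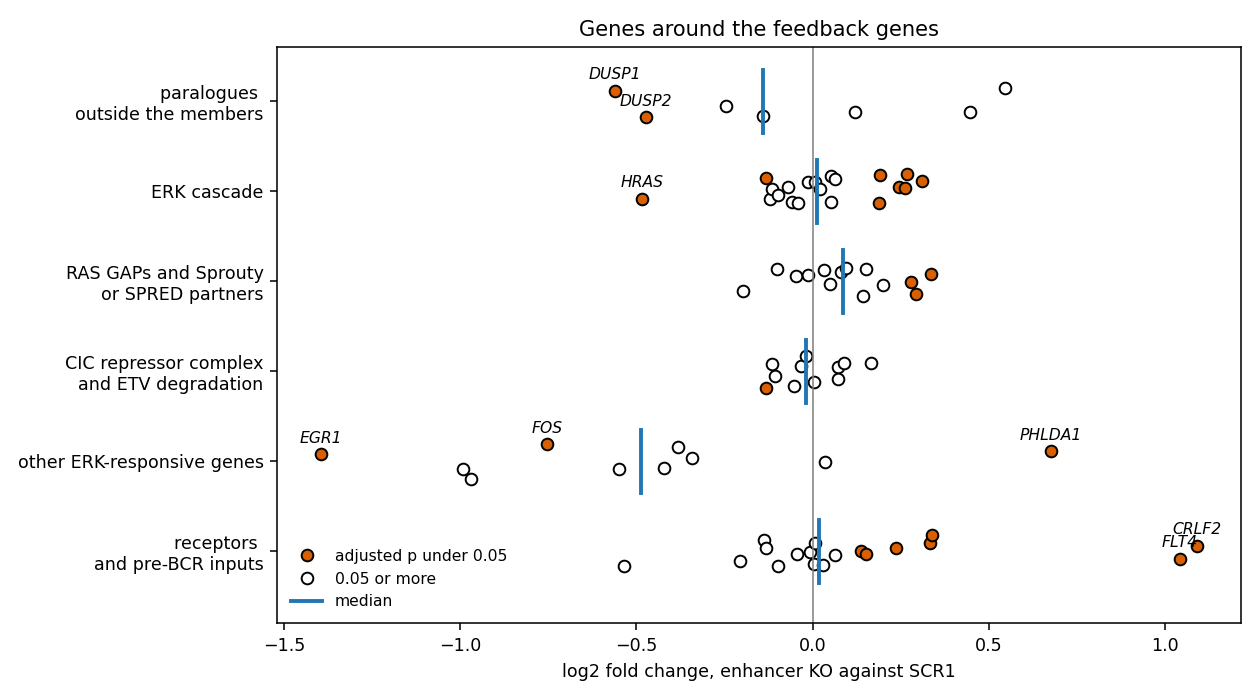
Log2 fold change between KO and SCR1 of the tested genes of 6 lists around the feedback genes, one row of points per list. Orange points have an adjusted p under 0.05, open points do not, and blue bars mark the list medians. The ERK-responsive list has the lowest median, -0.49, with 7 of its 10 tested genes open. The medians of the 4 lists other than it and the paralogues lie between -0.02 and 0.09.

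All 20 genes of the ERK cascade list were tested. Of these, 6 were higher (10.3% over all genes), 2 lower (10.7%) and 12 did not pass, with a median log2 fold change of 0.01. Among the higher genes were the adaptors GAB1 (log2 fold change 0.31) and GAB2 (0.26) and the ribosomal S6 kinase RPS6KA3 (0.27). HRAS, a RAS GTPase, was lower, from 23.8 ± 1.96 CPM in SCR1 to 17.1 ± 1.93 CPM in KO (log2 fold change -0.48 ± 0.09, SE; adjusted p = 0.000581, edgeR).

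Of 16 RAS GTPase activators and Sprouty or SPRED partners, 14 were tested, 3 were higher (10.3% over all genes), none lower (10.7%) and 11 did not pass. The 3 were NF1, the neurofibromin that SPRED proteins bring to RAS (log2 fold change 0.28, adjusted p = 0.000756), RASA2, another RAS GTPase activator (0.34, adjusted p = 0.00139), and CBLB, a ubiquitin ligase (0.29, adjusted p = 0.0180; 0.149 without SCR1 replicate 1). The median of the list was 0.09. All 11 genes of the CIC repressor complex and of ETV degradation were tested, and only the deacetylase HDAC1 passed, lower by a log2 fold change of -0.13 (adjusted p = 0.0452; 0.104 to 0.129 with any 1 SCR1 library left out). CIC itself had 99.5 ± 4.48 CPM in SCR1 and 112 ± 10.7 CPM in KO (log2 fold change 0.16, adjusted p = 0.0793). CIC passed as higher with upper quartile scaling (0.0486), where HDAC1 did not pass (0.0777), and without a filter (0.0350). 

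Of 23 receptors and pre-BCR inputs, 18 were tested, 7 were higher (10.3% over all genes), none lower (10.7%) and 11 did not pass. FLT4, a VEGF receptor, had 30.8 ± 1.08 CPM in SCR1 and 63.6 ± 4.24 CPM in KO (log2 fold change 1.04 ± 0.07, SE; adjusted p = 3.43e-10, edgeR). CRLF2, a cytokine receptor chain, had 2.33 ± 0.15 and 4.99 ± 0.25 CPM (log2 fold change 1.09). The adaptor BLNK (0.34) and the RAS activator RASGRP2 (0.33) were also higher, while FLT3 had 114 ± 7.4 CPM in SCR1 and 113 ± 7.7 CPM in KO (adjusted p = 0.947). The median log2 fold change of the list was 0.02.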

How the data were processed

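RNA was measured in 9 libraries of HAL-01 cells, grouped by their GEO titles. The authors aligned reads with STAR, quantified transcripts with Salmon 1.10.1 on GRCh38 and deposited estimated counts per transcript without normalization. They also deposited TPM, which Salmon scales by effective length to a fixed total per library. Counts of 252835 transcripts, all matched to GENCODE release 44, were summed per gene and rounded. The 10 genes, the lists and the tests were chosen with earlier results of these data known.

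Genes were filtered with filterByExpr (minimum count 10), scaled by TMM and tested in edgeR 4.0.16 (R 4.3.3) by its robust quasi-likelihood method, and p-values of the 14436 genes were adjusted after Benjamini and Hochberg, with 0.05 as the threshold. KO (6 libraries) was compared with SCR1 (3) in a 2-group fit, and the guides in a 3-group fit. Transcript shares were compared with exact permutation tests (scipy). Alternatives used DESeq2 1.42.0, limma 3.58.1 on log2(TPM + 1) or log2(TPM + 0.1), other scalings, no filter, gene length offsets, a replicate block, each library left out and, added after seeing the data, both replicate 1 KO libraries left out. The scripts were tested on simulated data.

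Named genes were the 10 feedback genes, MEF2C, the 5 genes most like SPRY4, and, per list, its first gene and at most 4 called genes of largest change. FOSB, FOSL1 and IER2 were added to describe the median of the ERK-responsive list. The first genes of 2 lists are not reported here. Nothing says that the libraries came from separate cultures, so p-values measure the spread between libraries, which may be technical. No 2 libraries of the same group agreed within sampling noise.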

Additional observations from a re-analysis of the deposited data

Results flagged for a closer look

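Over the 6 KO libraries, the level of MEF2C in sgRNA_97 replicate 1, 552.8 CPM, stood apart from the next highest, 510 CPM, by 0.737 of the range of the group, past Dixon's 95% limit for 6 libraries. This check was made on 8 genes, the 7 expressed feedback genes and MEF2C, and chance flags about 1 in 20 groups. Without this library the log2 fold change of MEF2C was -0.14 (adjusted p = 0.0133, edgeR) instead of -0.12 (0.0559). The library was picked by its high MEF2C level, so a larger fall without it was fixed in advance and is no separate evidence. None of the 7 feedback genes had such a library.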

How the results depend on the processing

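The number of feedback genes called between KO and SCR1, SPRY4 aside, was 3 and fell to 0 with gene length offsets and with limma on log2(TPM + 1), log2(TPM + 0.1) or log2(TPM + 1) without a filter, to 1 without both replicate 1 KO libraries (chosen after seeing the data), and to between 0 and 3 with 1 library left out. For sgRNA_96 it was 0, became 1 without both replicate 1 KO libraries, and ranged from 0 to 1 with 1 library left out. For sgRNA_97 it was 1 and became 0 in edgeR with DESeq2 size factors, without a filter and with gene length offsets. It also became 0 with the 3 limma fits, and ranged from 0 to 2 with 1 library left out. With a replicate block the sgRNA_97 count was 2, with SPRED2 added (adjusted p = 0.0480); the deviations of same-numbered libraries correlated at -0.066 to 0.055, so the numbers were not taken to pair the libraries. The block changed no other count of feedback genes. Over all genes, the calls between KO and SCR1 moved as well. They were 3037 of 14436 in the fit reported and 1550 with gene length offsets. With limma they were 1253 on log2(TPM + 1), 1277 on log2(TPM + 0.1) and 615 of 27291 on log2(TPM + 1) without a filter. They ranged from 1650 to 3667 with 1 library left out. For sgRNA_97 they were 2294, with 2298 for DESeq2 size factors, 953 for gene length offsets and 704 for limma on log2(TPM + 1). The causes were not tested. The counts for sgRNA_97 against sgRNA_96 (0) and for transcript shares (0) did not move under the alternatives run for them. Over the 6 pathway lists together, 24 genes were called. This became 10 with limma on log2(TPM + 1) or log2(TPM + 0.1) and 7 with limma on log2(TPM + 1) without a filter. It ranged from 15 (without SCR1 replicate 1) to 26 with 1 library left out, and stayed within 1.5 times otherwise (limma, block and left-out libraries chosen after seeing the data). By list, the ERK cascade count of 8 became 5 with gene length offsets and without SCR1 replicate 4, 4 without SCR1 replicate 1 and 1 to 2 with limma. The CIC list count of 1 ranged from 0 to 2 over the alternatives. With limma the RAS GAP list went from 3 to between 0 and 1, the other ERK-responsive genes from 3 to 1 and the receptors and pre-BCR inputs from 7 to 4.

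The direction of SPRED1 reversed with gene length offsets (-0.0761) and with limma on log2(TPM + 1) (-0.0708), log2(TPM + 0.1) (-0.0834) and log2(TPM + 1) without a filter (-0.0708). FLT3, near 0, reversed as well. It became 0.0053 with upper quartile scaling and 0.0128 without both replicate 1 KO libraries, and ranged from -0.0605 to 0.0309 with 1 library left out. At 12 to 101 counts per library, SPRY4 has the fewest counts of the 7 expressed genes.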
